A study of Mus musculus with 8 samples.

Results

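The mRNAs of the cytosolic ribosomal proteins were followed in endogenous CD8+ T cells (en-T cells) of tumor-bearing mice, in cells enriched for high expression of the interleukin-18 receptor alpha chain (IL-18Rα hi) and in the cells left behind. Members were taken by name: a gene symbol of Rpsa, or one that begins with Rpl, Rps, Rplp or Rpsp followed by a digit, leaving out names with -ps and the Rps6k kinases. The rule found 91 of the 47493 genes in the table, and 87 of these had a mean level of 1 FPKM or more (the fragments of a gene divided by its transcript length and by the library's mapped fragments, a level per length) over the 8 libraries. Of the 87, 45 were main copies of the large subunit, 31 were main copies of the small subunit, 10 were further gene copies, and Rps19bp1 encodes a nucleolar binding partner of RPS19 and no ribosomal protein. The 4 members under 1 FPKM were all further copies: Rpl10l and Rps12l1 were listed at 0 in every library, Rpl3l reached at most 0.14 FPKM and Rps3a3 at most 0.22 FPKM. Rpl13 was not analysed here, and Fau and Rack1 lie outside the name rule and are given apart.

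The 8 libraries came from 4 female C57BL/6 mice, 6 to 8 weeks old, and each mouse gave 1 library of each fraction. All mice carried B16F10 melanoma (200000 cells into the skin on day 0), received cyclophosphamide (300 mg/kg on day 3) and 2000000 Thy1.1 Pmel-1 cells on day 5, CD8+ T cells with a transgenic receptor for a melanoma antigen that had been primed ex vivo. They also received interleukin-2 (10000 IU daily for 3 days) and the CD4-depleting antibody GK1.5 (200 µg weekly for 3 weeks from day 10). On day 25, Thy1.1-negative CD8+ T cells of inguinal lymph nodes and spleen were bound with PE-labeled antibody to IL-18Rα and magnetic beads, the bound cells giving the IL-18Rα hi-enriched libraries and the column flow-through giving the control libraries. The flow-through is thus no untreated group, since both fractions share tumor, drugs, transferred cells and CD4 depletion, and the antibody-bound cells differ from it in their handling as well. The targeted receptor followed the labels: Il18r1 stood at 22.2 to 37.2 FPKM in the flow-through libraries and 107 to 116 FPKM in the enriched libraries.

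Each cytosolic ribosome is built from a large and a small subunit, and each subunit holds ribosomal RNA and 1 molecule of nearly every ribosomal protein, so that the proteins are needed in equal numbers. Many vertebrate ribosomal protein mRNAs begin with a terminal oligopyrimidine tract (TOP), a cytosine followed by a run of pyrimidines, through which the mTOR pathway and LARP1 control their translation and stability. Naive T cells are small resting cells, and activation is known to raise the making of ribosomes. An mRNA level gives neither the number of ribosomes nor the rate of translation.

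The start of the genes is shown for some of the members on which the comparisons turn. Each window holds 30 bases before and 20 bases from the annotated RefSeq start on (assembly GRCm38.p6, the same build as mm10). It is read 5′ to 3′ on the gene's own strand. Capitals mark the longest tract of C and at least 4 further pyrimidines that begins within 10 bases of the start, where there is one. For Rps27l the run of pyrimidines goes on upstream of the capitals, beyond that limit. The capitals of Rps27l also end before the annotated start, and those of Rpl36a begin 9 bases after it. The first is the start of Rps6, the subunit protein phosphorylated downstream of mTOR, at chr4:86857348-86857397. Rpl12, among the largest falls, is at chr2:32961682-32961731. Rps27 at chr3:90213629-90213678 is shown with its further copies Rps27rt at chr9:114982720-114982769 and Rps27l at chr9:66946056-66946105, the upstream of its 2 listed starts. Rpl36a at chrX:134585624-134585673 is shown with Rpl36al at chr12:69184048-69184097, and Rpl22l1 at chr3:28805478-28805527.
Rps6: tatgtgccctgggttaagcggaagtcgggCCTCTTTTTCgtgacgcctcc
Rpl12: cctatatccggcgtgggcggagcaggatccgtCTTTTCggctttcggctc
Rps27: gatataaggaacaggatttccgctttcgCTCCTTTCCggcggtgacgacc
Rps27rt: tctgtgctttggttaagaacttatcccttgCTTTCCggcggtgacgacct
Rps27l: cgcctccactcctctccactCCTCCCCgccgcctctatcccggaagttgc
Rpl36a: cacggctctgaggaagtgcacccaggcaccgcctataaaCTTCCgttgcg
Rpl36al: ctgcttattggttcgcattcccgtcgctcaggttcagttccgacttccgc
Rpl22l1: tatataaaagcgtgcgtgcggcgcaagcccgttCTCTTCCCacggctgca

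The table of starts held entries for 56 of the 76 main copies and for 7 of the 10 further copies. Such a tract was found in 34 of the 56 main copies (60.7%), against 34.4% of 27025 genes. Where the C had to be the first of its run, it was found in 33 (58.9%, against 32.6%). Of named members whose starts are not shown, Rps28, Rpl5, Rpl11, Rpl37, Rpl7l1, Rpl37rt and Rps13 had no tract of either kind within 10 bases of the annotated start. Runs of pyrimidines that begin farther away, as in Rpl5 and Rps13, were not counted. The start used in these cells was not measured and need not be the annotated one, so a tract may be missed. Rps19 had a tract only at its listed start 3 and Rpl22 only at its listed start 2, while Rpl39 and Rpl39l each had one. Over the 300 bases of the table (250 before the start and 50 after it) and on both strands, CTTTCC was found in 29 main copies (51.8%, against 29.3% of all genes) and CTTTTC in 16 (28.6%, against 24.3%). Both motifs can overlap the tract. CCGGAAG, the core bound by ETS family factors, was found in 24 main copies (42.9%, against 9.93% of all genes). It is shown in capitals for Rps6 at chr4:86857438-86857472, for Rpl11 at chr4:136053374-136053408 and for Rpl37 at chr15:5116576-5116610. These are matches of letters and not sites of binding. Of the members named here, Rplp1, Rpl17, Rpl3, Rpl7, Rpl21, Rps27a, Rps29, Rpl6l, Rps3a2 and Rps4l had no entry.
Rps6: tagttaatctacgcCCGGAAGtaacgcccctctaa
Rpl11: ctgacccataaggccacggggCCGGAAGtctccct
Rpl37: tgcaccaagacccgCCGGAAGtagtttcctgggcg

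Ribosomal protein mRNAs were among the most abundant of the cells. The 87 members took 24.5 to 26.3% of the summed FPKM in the flow-through libraries and 18.4 to 21.2% in the enriched libraries, and they held 68 to 73 and 58 to 68 of the 100 highest places, respectively. The 76 main copies lay on 19 chromosomes and spanned 755 to 5409 FPKM (means of 8 libraries), a 7.16-fold range. Rplp1, an acidic protein of the stalk that recruits elongation factors, was highest at 5409 FPKM, followed by Rps27 at 4838, Rps12 at 4772 and Rps29 at 4283 FPKM. Rpl37 was lowest at 755 FPKM, below Rpl21 at 904, Rpl35 at 920 and Rpl27a at 972 FPKM. The order of the main copies was much the same in every library, with Spearman's rho across the 76 genes between 0.945 and 0.995 for any 2 libraries. The median main copy of the small subunit stood above that of the large subunit, at 2171 against 1575 FPKM, and levels were lower for longer transcripts (rho −0.45 across genes, a description only, since these genes share libraries).

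**Figure D1:**
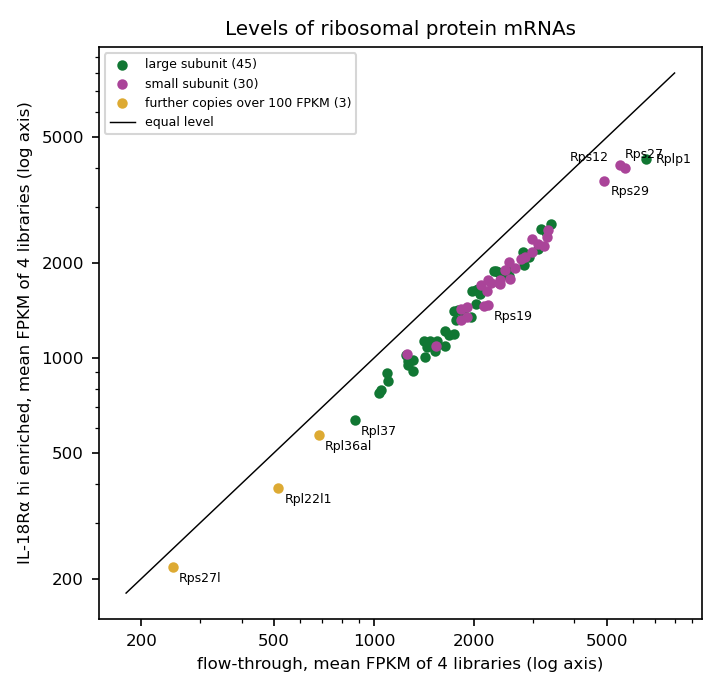
Mean level of 75 of the 76 main copies and of the 3 further copies above 100 FPKM in the flow-through (x axis) and the IL-18Rα hi-enriched libraries (y axis), both in FPKM on log axes, n = 4 libraries each. The points run parallel to and below the line of equal level.

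Nearly all ribosomal protein mRNAs were lower in the IL-18Rα hi-enriched cells. From 74 to 76 of the 76 main copies had a fold change below 0 under each scaling run, other than that to the ribosomal proteins themselves. Of the 87 members, 77 fell and 0 rose (limma on log2(FPKM + 1), Benjamini-Hochberg adjusted p under 0.05 over 12166 genes), where 13.7% of all tested genes were called lower and 14.1% higher. At an unadjusted p under 0.05, 79 members were lower and 0 higher. With mouse as a block, 78 members fell, beside 22.7% of all genes. Among the main copies, 45 of 45 of the large subunit and 29 of 31 of the small subunit fell. The median member was lower by 24.9%, with a median log2 fold change of −0.41 beside −0.0178 over all tested genes. The highest enriched library stood below the lowest flow-through library in 77 members, against 15.9% of all tested genes, and the reverse held in 0 members, against 16.4%. At or above the level of the lowest main copy were 55 non-members. Of these, 9 were called lower (16.4%) and 16 higher, beside 13.7% and 14.1% of all tested genes. Their median log2 fold change was 0.32. The part of level in the fall was not tested. Quantile normalization left 23 members called lower, beside 13.6% of all genes, and a test of every gene above 0 left 33, beside 5.63%. Members called higher were 0 in both, beside 14.4% and 7.32% of all genes. In bulk libraries, fewer cells with a high level and less RNA per cell cannot be told apart.

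Taken as a sum, the members stood at 25.9, 24.5, 26.1 and 26.3% of all FPKM in flow-through libraries 1 to 4 and at 21.2, 18.4, 19.5 and 18.7% in enriched libraries 1 to 4. The fractions did not overlap, and the share was lower in the enriched library of each of the 4 mice. The mean fell from 25.7% ± 0.816 to 19.5% ± 1.27 (SD, n = 4). The size of the difference varied between mice. In mouse 1, the median main copy of the large subunit was lower by 0.31 on the log2 scale and that of the small subunit by 0.22, with 74 of the 76 main copies lower in the enriched cells. In mice 2, 3 and 4, 76 of 76 main copies were lower, with medians of −0.42, −0.43 and −0.48 for the large and −0.44, −0.45 and −0.53 for the small subunit. Library 1 of the enriched cells gave the highest enriched value in 42 of 45 large-subunit and 28 of 31 small-subunit main copies. Flow-through library 1 gave the lowest flow-through value in 18 large-subunit and 19 small-subunit main copies.

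The fall was shared by both subunits. The median log2 fold change was −0.41 for the large and −0.43 for the small subunit, a difference of 0.0195. The median large-subunit main copy stood at 1762 ± 19.7 FPKM for flow-through and 1352 ± 68.8 FPKM in the enriched libraries, and the median small-subunit main copy at 2464 ± 132 and 1806 ± 56.6 FPKM (SD, n = 4). The large subunit made up 53.0, 51.6, 52.0 and 51.0% of the main-copy FPKM in flow-through libraries 1 to 4 and 51.7, 51.9, 52.4 and 51.7% in enriched libraries 1 to 4. These values overlap, and the means of 51.9% ± 0.867 and 51.9% ± 0.325 differed by 0.0118 percentage points, less than the spread between libraries. By mouse, the share was lower in the enriched library of mouse 1 and higher in that of every other mouse. Changes of single genes were spread narrowly, with 10th and 90th percentiles of −0.53 and −0.30 on the log2 scale over the main copies. Across the 76 genes, Spearman's rho of the change was −0.0405 with the level of the mRNA and 0.108 with its length, given as descriptions.

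**Figure D2:**
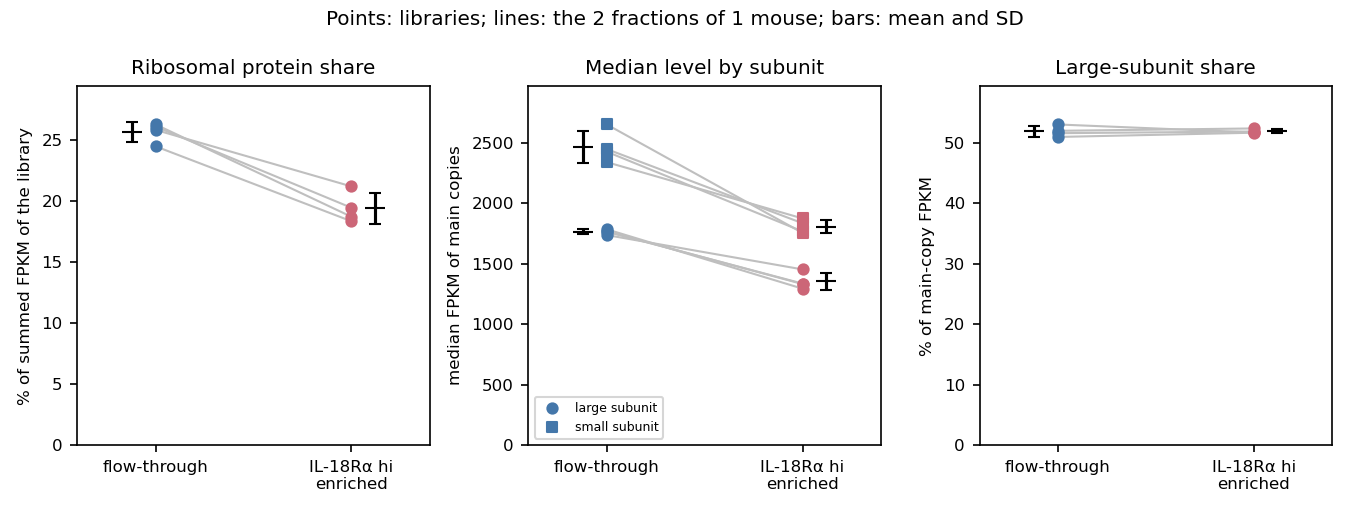
Left, share of the summed FPKM of each library held by the 87 members; middle, median FPKM of the main copies of each subunit (circles large, squares small); right, large-subunit share of main-copy FPKM. Lines join the 2 fractions of 1 mouse and bars give the mean and SD of 4 libraries. The first 2 measures drop in every mouse. The third has a mean of 51.9% in both fractions, and drops in mouse 1 only.

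Among the main copies, the largest fall was that of Rplp1. It stood at 6796, 5953, 6769 and 6670 FPKM in the flow-through libraries and at 4523, 4237, 4220 and 4102 FPKM in the enriched libraries. The fractions did not overlap, and the mean was lower by 34.8% (log2 fold change −0.62 ± 0.08 SE, adjusted p = 0.0019). Its partner in the stalk, Rplp2, went from 1791 ± 155 to 1421 ± 85.7 FPKM (−0.33 ± 0.09, adjusted p = 0.0247). Rplp0, on which the stalk is built, went from 3291 ± 101 to 2501 ± 135 FPKM (−0.40 ± 0.07, adjusted p = 0.0066). All 3 stalk mRNAs thus fell. With quantile normalization Rplp1 was still called (adjusted p = 0.0162), but Rplp0 and Rplp2 were not (adjusted p = 0.242 and 0.179).

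Rpl36a, a large-subunit protein encoded on the X chromosome, fell by 0.58 on the log2 scale (adjusted p = 0.0016), from 1574, 1683, 1684 and 1602 FPKM to 1193, 1062, 1062 and 1063 FPKM. Rps19, a small-subunit protein altered in Diamond-Blackfan anemia, also fell by 0.58 (adjusted p = 0.002), from 2059, 2210, 2106 and 2414 to 1542, 1452, 1425 and 1457 FPKM. Neither gene's fractions overlapped. The next largest falls among main copies were those of Rps28, a small-subunit protein near the messenger exit (−0.55), Rpl12 at the base of the stalk (−0.54), Rpl3, which lies by the peptidyl transferase center (−0.54), Rpl37a (−0.53) and Rpl23 (−0.53), with adjusted p from 0.0022 to 0.0038. Of these 8, 6 belong to the large subunit, which holds 45 of the 76 main copies.

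Members chosen for their roles fell as well, though with quantile normalization none of those in this paragraph was called (adjusted p 0.0528 to 0.838). Rps6 went from 2466, 2586, 2663 and 2866 FPKM to 2121, 1912, 1806 and 1878 FPKM (−0.46 ± 0.08, adjusted p = 0.0065). Rpl5 and Rpl11, which bind 5S ribosomal RNA and, when free, MDM2, moved from 1445 ± 92.9 to 1080 ± 22.1 FPKM (−0.42, adjusted p = 0.0053) and from 1413 ± 56.6 to 1132 ± 53.7 FPKM (−0.32, adjusted p = 0.0124). Rps27a, made as a fusion with ubiquitin, fell by 0.37 on the log2 scale (adjusted p = 0.0095). Rpsa, also known as the laminin receptor, fell by 0.32 (adjusted p = 0.019) and Rpl10, which joins the large subunit late, by 0.31 (adjusted p = 0.013). Rpl39, a small protein of the exit tunnel, fell by 0.45 (adjusted p = 0.0103). Rpl22, required for the development of αβ T cells, fell by 0.29 (adjusted p = 0.0225), from a flow-through range of 1045 to 1173 FPKM to an enriched range of 864 to 950 FPKM.

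The 4 main copies of highest level all fell, Rps27 by 0.50, Rps12 by 0.43 and Rps29 by 0.42 on the log2 scale beside Rplp1 (adjusted p 0.0108 to 0.0135 for these 3). The 4 of lowest level fell in like manner, Rpl37 by 0.46, Rpl21 by 0.42, Rpl35 by 0.41 and Rpl27a by 0.38 (adjusted p 0.0042 to 0.0102). With quantile normalization Rps12 and Rps29 were not called (adjusted p = 0.674 and 0.0757). In that setting Rps27 and the 4 of lowest level were called lower (adjusted p 0.0043 to 0.0238).

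**Figure D3:**
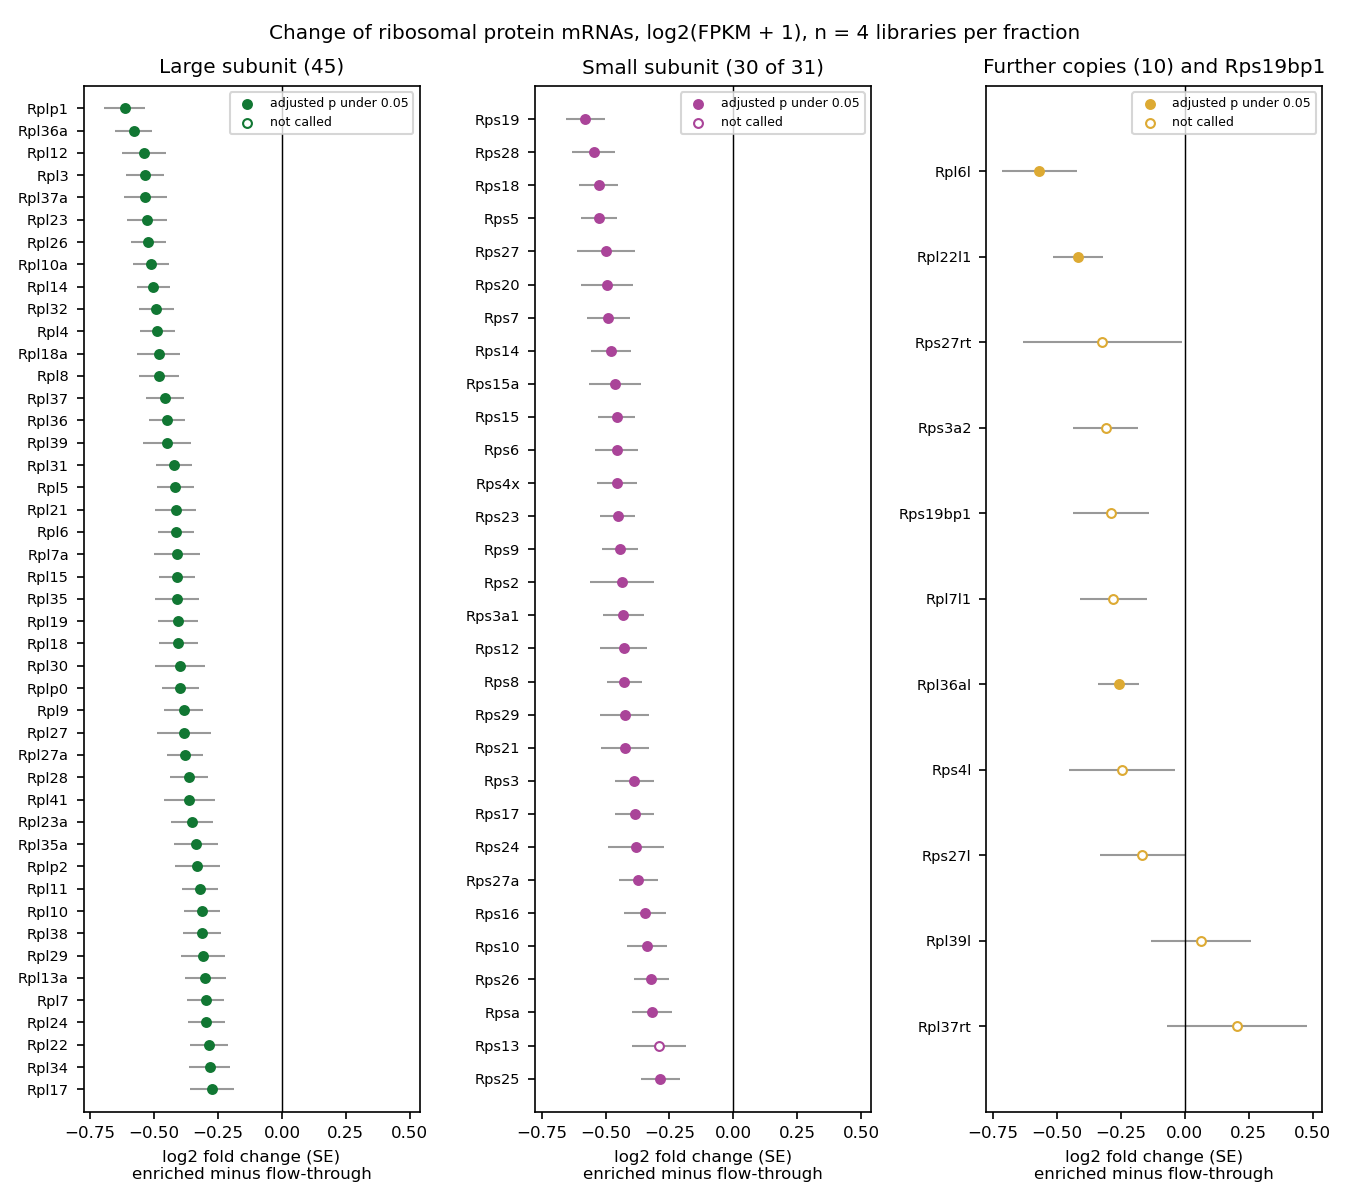
Log2 fold change (enriched minus flow-through, log2(FPKM + 1)) of the 45 large-subunit and 30 of the 31 small-subunit main copies, the 10 further copies and Rps19bp1, with its standard error from limma, n = 4 libraries per fraction. Filled points passed an adjusted p of 0.05: Rps13 is the open point among the main copies shown, and 7 of the 10 further copies are open.

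Among the main copies called lower, small changes were those of Rpl17 (−0.27, adjusted p = 0.0468), Rpl34 (−0.28, adjusted p = 0.0317) and Rpl22 (−0.29). With quantile normalization Rpl17, Rpl34 and Rpl22 were not called (adjusted p 0.0763 to 0.955). Rps13, a small-subunit protein, did not pass. It was at 1809, 2287, 1953 and 2341 FPKM across flow-through and 1833, 1641, 1601 and 1753 FPKM across enriched libraries (−0.29 ± 0.10, adjusted p = 0.0685). Its overlap came from replicate number 1, in which the enriched value was the higher. With each library scaled to its CD8 T-cell identity genes, Rps13 was called lower (−0.63, adjusted p = 0.0414).

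Each library was also scaled to the median of its own main copies, so that changes were read within the ribosomal proteins. This scaling moved the median change over all genes, on the log2 scale, from −0.0178 to 0.37, and 49.3% of all genes were then called higher, with 1 member among them. In the same scaling 3 members were called lower, beside 2.47% of all genes: Rplp1 (−0.23, adjusted p = 0.0279), Rpl36a (−0.19, adjusted p = 0.0362) and Rps19 (−0.19, adjusted p = 0.025). These 3 calls depended on single libraries. Of the 8 fits without 1 library, Rplp1 passed in 3, Rpl36a in 2 and Rps19 in 2, and none of the 3 passed without flow-through library 3 or without any 1 of the 4 enriched libraries. With the mouse as a block in this scaling, 4 members were lower, beside 4.87% of all genes, and 3 higher, beside 58.8%. Rps28 (adjusted p = 0.0426) was added to those lower, and the low copies Rpl37rt (0.59, adjusted p = 0.0121) and Rpl39l (0.45, adjusted p = 0.0486) to those higher.

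**Figure D4:**
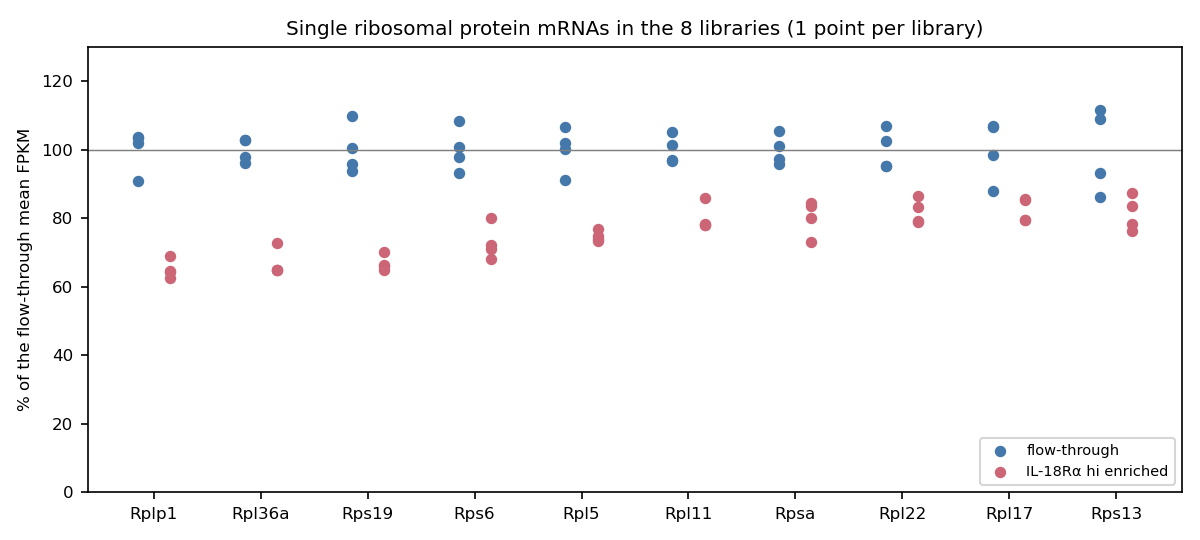
FPKM of 10 main copies in the 8 libraries, as a percentage of each gene's flow-through mean (1 point per library, blue flow-through, red enriched). Rplp1, Rpl36a and Rps19 show the widest gaps, and the 2 colors meet in Rps13.

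Of the further copies, which are paralogs or copies made by retroposition, 3 of 10 passed as lower (Rpl6l, Rpl22l1 and Rpl36al) and 0 as higher. Of all tested genes, 13.7% were called lower and 14.1% higher. The median standard error of the further copies was 0.157, against 0.0778 for the main copies, and the difference between the 2 classes was not tested. Rpl6l was at 1.64, 2.29, 1.44 and 1.78 FPKM across flow-through and 1.14, 0.586, 0.808 and 0.986 FPKM across enriched libraries, without overlap. Its mean was lower by 50.8%, more than that of any main copy, at a level near the pseudocount (−0.57 ± 0.15, adjusted p = 0.0232). Of these copies, 3 stood above 100 FPKM. Rpl22l1, which can take the place of RPL22, was at 485, 571, 513 and 492 FPKM across flow-through and 445, 341, 380 and 379 FPKM across enriched libraries (−0.42 ± 0.10, adjusted p = 0.0161), a fall without overlap. Rpl36al was at 724, 647, 726 and 629 and at 612, 558, 541 and 565 FPKM (−0.26 ± 0.08, adjusted p = 0.0423), also without overlap. Rps27l, a target gene of p53, was at 330, 215, 256 and 192 and at 253, 204, 212 and 201 FPKM, which overlap (−0.17 ± 0.17, adjusted p = 0.482).

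Copy and main copy were compared as a ratio within each library in 10 pairs, with an exact two-sided permutation test whose smallest p is 0.0286. Rpl36al amounted to 46.0, 38.4, 43.1 and 39.3% of Rpl36a in flow-through libraries 1 to 4 and to 51.3, 52.5, 50.9 and 53.1% in enriched libraries 1 to 4. The fractions did not overlap, and the ratio was higher in the enriched cells of 4 of 4 mice, by 0.32 on the log2 scale (exact permutation p = 0.0286, adjusted p = 0.143 over the 10 pairs and 0.229 over the 8 pairs without the 2 added later). The difference between fractions was thus larger for the X-linked Rpl36a than for its autosomal copy in each mouse, without passing the adjusted test. Rpl22l1 amounted to 46.9% ± 1.34 of Rpl22 for flow-through and 42.9% ± 3.31 in the enriched libraries (log2 difference −0.13, exact permutation p = 0.0857, adjusted p = 0.214). Rps27l amounted to 4.56% ± 1.84 and 5.46% ± 0.675 of Rps27 (adjusted exact permutation p = 0.476). Rpl7l1, which works in ribosome assembly in the nucleolus, amounted to 2.64% ± 0.449 and 2.63% ± 0.116 of Rpl7 (adjusted exact permutation p = 0.857). No pair passed after adjustment, 2 had an unadjusted p under 0.05, and with 4 libraries a side a single pair cannot pass.

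Rpl37rt was the other pair at the smallest unadjusted p, at 0.127% ± 0.0523 of Rpl37 for flow-through and 0.239% ± 0.153 in the enriched libraries (log2 difference 0.66, higher in 4 of 4 mice, adjusted exact permutation p = 0.143). Its own level was 0.83, 0.56, 1.47 and 1.64 FPKM against 1.04, 0.78, 1.33 and 2.88 FPKM, so that the ratio rests on values near the pseudocount of 1. Rpl39l, Rpl6l, Rps27rt, Rps3a2 and Rps4l likewise had group means of 0.0633 to 0.205% of their main copies, with adjusted exact permutation p from 0.19 to 0.73. Rps27rt, Rps3a2, Rpl6l and Rpl37rt share exact stretches of 341, 317, 354 and 257 bases with their main copies, longer than a read of 150 bases, so reads of the pair could be split between them by the estimate and their values are uncertain. The longest exact stretch was 24 bases for Rpl36al and Rpl36a, 26 for Rpl22l1 and Rpl22, 22 for Rpl7l1 and Rpl7 and 11 for Rps27l and Rps27. The 260 names with -ps left out by the rule summed to 172 to 287 FPKM a library, 0.13 to 0.17% of the members' sum. Rps19bp1 was at 22.1 ± 4.35 and 17.8 ± 2.42 FPKM (−0.29 ± 0.15, adjusted p = 0.18).

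**Figure D5:**
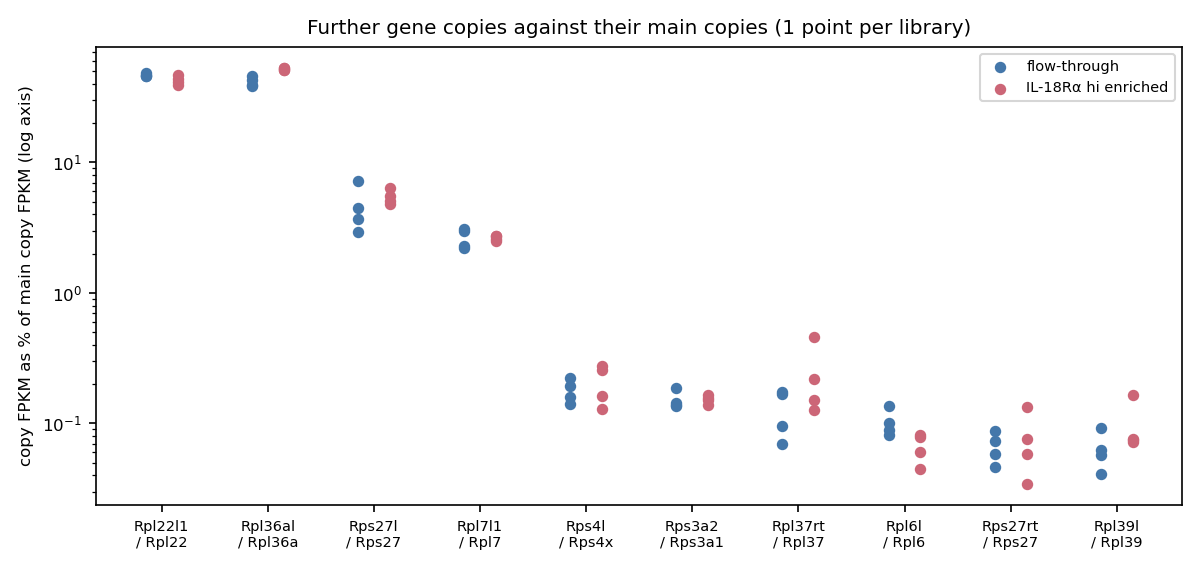
FPKM of each further copy as a percentage of its main copy (log axis), 1 point per library, blue flow-through and red enriched. The 2 pairs near 50% are Rpl22l1 and Rpl36al, whose points lie lower or overlap in the enriched libraries for Rpl22l1 and higher without overlap for Rpl36al, and 6 of the 10 copies stay under 0.5%.

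Other genes of the pathway were counted by lists, where 13.7% of all tested genes were called lower and 14.1% higher. Of ribosomal proteins outside the name rule, Gnb2l1 (Rack1) fell by 0.44 and Fau by 0.24 on the log2 scale (adjusted p = 0.0039 and 0.0417). Of 6 chaperones that escort single ribosomal proteins, 4 fell and 2 did not pass. Tsr2, the escort of RPS26, went from 15.7 ± 1.54 to 9.06 ± 0.574 FPKM (−0.73, adjusted p = 0.0015). Grwd1, the escort of RPL3, went from 29.3 ± 7.23 to 16.4 ± 2.4 FPKM (−0.78, adjusted p = 0.0147), and Heatr3, which carries RPL5 into the nucleus, from 36.0 ± 7.48 to 21.3 ± 2.04 FPKM (−0.72, adjusted p = 0.0096). The median of this list was −0.52, beside −0.0178 over all tested genes. With each library scaled to its CD8 T-cell identity genes, Gnb2l1 and Tsr2 were called lower (adjusted p = 0.0391 and 0.0269). In that scaling Fau (−0.58, adjusted p = 0.0646), Grwd1 (−1.12, adjusted p = 0.0521) and Heatr3 (−1.05, adjusted p = 0.0507) did not pass.

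Of 15 further mRNAs known as TOP mRNAs, 10 fell, 1 rose and 4 did not pass, beside 13.7% lower and 14.1% higher of all tested genes. Their median was −0.34, beside −0.0178 over all tested genes. Eef1a1, the elongation factor that delivers aminoacyl-tRNA, went from 7596 ± 292 to 5983 ± 145 FPKM (−0.34, adjusted p = 0.0111), Eef1g by −0.64, Pabpc1 by −0.57 and Npm1, a nucleolar chaperone, by −0.81 (adjusted p 0.0027 to 0.0069). Eif3h was at 359 ± 25.5 and 361 ± 9.93 FPKM (adjusted p = 0.936). The 1 that rose was Vim, the intermediate filament vimentin, from 464 ± 103 to 1212 ± 70.5 FPKM (1.41, adjusted p = 0.0012). With each library scaled to its CD8 T-cell identity genes, Eef2, Naca, Btf3, Eif3e and Hnrnpa1 lost their calls (adjusted p 0.0611 to 0.114). Those of Eef1a1, Eef1g, Pabpc1, Npm1 and Vim were kept (adjusted p 0.0023 to 0.0474).

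Of 13 regulators of TOP mRNAs, 6 fell (beside 13.7% of all tested genes), 0 rose (beside 14.1%) and 7 did not pass. Larp1, which binds the tract, was at 50.1 ± 4.76 and 40.2 ± 2.59 FPKM (−0.31, adjusted p = 0.0335), and Eif4ebp1, a translation repressor controlled by mTOR, at 51.1 ± 16.7 and 27.7 ± 4.06 FPKM (−0.82, adjusted p = 0.0202). Mtor was at 8.3 ± 0.145 and 8.61 ± 0.73 FPKM and Rps6kb1, the kinase of RPS6, at 20.3 ± 2.77 and 19.6 ± 1.15 FPKM (adjusted p = 0.712 and 0.782). Among 6 genes of nucleolar stress, Trp53 fell from 180 ± 26.4 to 120 ± 9.27 FPKM (−0.58, adjusted p = 0.0078) and 5 did not pass (with the mouse as a block Mdm4 was also lower and Cdkn1a higher, adjusted p = 0.0335 and 0.0027), Mdm2 being at 31.5 ± 3.91 and 36.5 ± 1.56 FPKM. Among 6 genes of ribosome recycling and rescue 3 fell, Abce1, which splits ribosomes, by 0.59 (adjusted p = 0.0206), Zfp598 by 0.34 (adjusted p = 0.0339) and Hbs1l by 0.33 (adjusted p = 0.0424), and 3 did not pass. With each library scaled to its CD8 T-cell identity genes, none of the falls named in this paragraph was called (adjusted p 0.0592 to 0.112).

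Markers of cell state and of other cells moved between the fractions too. All 8 markers of CD8 T-cell identity were found, summing to 1337 to 2548 FPKM across flow-through and 2542 to 2724 FPKM across enriched libraries, with 0 of 8 called. Flow-through library 1 gave the lowest of these sums, against 2144 FPKM or more in the other flow-through libraries. Of 11 markers of naive T cells, 6 fell, with a sum of 834 to 1735 FPKM across flow-through and 914 to 1080 FPKM across enriched libraries, and a median log2 fold change of −0.75. Ccr7, a homing receptor of naive cells, was at 93.6 ± 26.8 and 36.9 ± 2.21 FPKM. Erythroid markers summed to 1114 to 3708 FPKM across flow-through and 289 to 1864 FPKM across enriched libraries, with 2 of 10 lower, and flow-through library 1 gave the highest sum. Myeloid markers summed to 503 to 2650 and 793 to 3558 FPKM (3 of 9 higher), NK-cell markers to 21.4 to 43.8 and 85.8 to 181 FPKM (4 of 5 higher), B-cell markers to 25.4 to 66.3 and 41.9 to 86.9 FPKM (1 of 6 tested higher) and proliferation genes to 707 to 1158 and 1017 to 1413 FPKM (3 of 7 higher). With the mouse as a block, 7 of 10 erythroid markers were lower, and 6 of 9 myeloid markers were higher and 1 lower. In the same fit 5 of 7 proliferation genes, 2 of 6 B-cell markers and 1 of 8 CD8 T-cell markers (Cd2) were higher. Of all tested genes, the unpaired fit called 13.7% lower and 14.1% higher, and the block called 22.7% lower and 2705 of 12166 higher. No marker of these lists was at 0 in every library. Without flow-through library 1, 76 members were lower, beside 13.1% of all genes, with medians of −0.41 for the large and −0.47 for the small subunit. With each library scaled to its CD8 T-cell identity genes, 56 members were lower, beside 6.86% of all genes (78 and 16.7% with the mouse as a block), with medians of −0.75 and −0.77 beside −0.36 for all genes, and 76 of 76 main copies stayed below 0. The part of the other marker lists in the fall of the ribosomal protein mRNAs was not tested.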

How the data were processed

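Libraries were stranded, from poly(A) RNA, and read as 150-base pairs. Per the labels and the study's methods, the authors filtered low-quality reads, aligned the rest with TopHat (version not given in the sources used here) to mm10 and computed FPKM values with Cufflinks 2.1.1 with correction for multi-mapped reads and fragment bias. The deposited table holds these FPKM values and no counts. Cufflinks distributes fragments by likelihood, so values need not be whole multiples of a read, depth is unknown here and no counting interval was given. No use of strand in the estimate is stated, so reads of overlapping genes may not be told apart. From 11706 to 12288 genes a library reached 1 FPKM. FPKM are relative to each library's mapped fragments, so members of high level also move the other genes. Their mean share of the summed FPKM was 25.7% for flow-through libraries and 19.5% for enriched libraries. Since FPKM are divided by length, this is not their share of fragments, which was not computed.

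The 12166 genes whose mean reached 1 FPKM were tested on log2(FPKM + 1) with limma 3.58.1 (trended variance, Benjamini-Hochberg over all genes tested, threshold 0.05) in R 4.3.3. A fold change on this scale understates changes of low genes. Copy to main copy ratios were tested by an exact permutation test over 70 arrangements in Python 3.11.15. The script for limma was tested on simulated data. The members and lists were chosen with earlier results of these data known. Named were all further copies and Rps19bp1, the 8 main copies of largest called fall, Rpl17, Rpl34 and Rpl22 for small falls (as none rose), the 4 highest and 4 lowest main copies and 12 members by role. Rps13 was named after its value was seen, as it was not called. A main copy and a gene of a list that these rules name are not reported here, though counts include them. Rpl6l, Rpl37rt and Rps12l1 were moved to the further copies after the names were seen, which added 2 pairs to 8. Positions are from GENCODE M21 and starts from RefSeq. Transcript length is that of the longest GENCODE transcript with a RefSeq match, limited to protein-coding ones after values were seen. All 91 gene identifiers matched, and of the pathway lists Rack1 and Znf598 are Gnb2l1 and Zfp598 in the table.

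Both fractions of a number came from 1 mouse. Same-numbered libraries deviated together from their group means (correlations 0.66, 0.59, 0.31 and 0.47), so the numbers pair the libraries. The unpaired fit is reported, and the fit with the mouse as a block is given where it changes a named member's call or moves a count of calls by over 1.5 times. Alternatives were another pseudocount, other filters and scalings, no variance trend, the block, and leaving out each library.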

Additional observations from a re-analysis of the deposited data

Results flagged for a closer look

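In 106 sets of 4 libraries (members named above, summed measures and copy ratios), 9 had 1 library far from the other 3 by Dixon's test (gap over range above 0.829), where chance gives about 1 in 20, or 5.3. Enriched library 1 stood above the others in Rps12 (4688 FPKM, others 3845 to 3898), Rpl11 (1213, others 1103 to 1109), Rpl36a (1193, others 1062 to 1063) and Rpl37 (684, others 615 to 625). Flow-through library 4 stood above in Rpl21 (1158 FPKM, others 975 to 1003), and flow-through library 2 below in Rplp1 (5953, others 6670 to 6796). Among low copies, Rpl39l was at 1.8 FPKM in enriched library 2 (others 0.83 to 0.86), which made it 0.164% of Rpl39 (others 0.0722 to 0.0755%), and Rps3a2 was 0.186% of Rps3a1 in flow-through library 2 (others 0.137 to 0.142%). The cause was not tested.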

How the results depend on the processing

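The 77 members called lower became 77 with a pseudocount of 0.1, 76 with a minimum of 5 FPKM or no variance trend and 75 with median scaling. With T-cell scaling 56 members were lower, of which 55 were among the 77 and the other was Rps13. With the replicate block 78 were lower. There the pairing by mouse added Rpl7l1 (adjusted p = 0.0412) and changed no other call of a named member. No member was called higher in these fits. With every gene above 0 tested, which adds genes to the adjustment and to the variance trend, 33 members were lower (22 of the large subunit, 9 of the small). Quantile normalization, which sets values of equal rank equal while members hold most of the highest ranks, left 23 (15 and 5), with medians of −0.23 (large), −0.19 (small) and −0.0441 (large minus small), and turned Rpl34 to 0.0064. T-cell scaling moved the medians to −0.75 and −0.77. Ribosome scaling, which centers the members by construction, moved them to −0.0234 and −0.0429, left 3 members lower (2 large, 1 small) and 1 higher, and, of the members named and called lower, turned the sign of Rpl36al (0.13), Rpl17 (0.11), Rpl34 (0.11), Rpl22 (0.10), Rpl10 (0.0734), Rpsa (0.0708), Rpl11 (0.068), Rplp2 (0.0556), Rps27a (0.0158) and Rpl27a (0.0084).

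Without 1 library, 58 to 76 members were lower and the difference of the subunit medians was 0.0148 to 0.0603, the highest without flow-through library 1. The calls of 8 named members were lost in some of these fits: Rpl17 in 7 (−0.24 to −0.29, all but the one without flow-through library 1), Rpl34 in 6 (−0.26 to −0.29, kept without either library 1), Rpl36al in 5 (−0.23 to −0.26, kept without flow-through 2 or 4 or enriched 1), Rplp2 in 5 (−0.28 to −0.34, kept without flow-through 1 or 2 or enriched 1), Rpl22 in 4 (−0.27 to −0.29, flow-through 3 and enriched 2, 3 and 4), Rpsa in 3 (−0.27 to −0.32, flow-through 3 and enriched 3 and 4), Rpl6l in 2 (−0.49 and −0.55, enriched 2 and 3) and Rpl10 in 1 (−0.30, flow-through 3). The large-subunit share differed by −0.30 to 0.39 percentage points without 1 library, by 0.0865 without the 5 highest members and by 0.0972 without transcripts under 500 bases, with a geometric difference of 0.0041 on the log2 scale, each within its spread. No copy pair passed after adjustment under any alternative run, and the sign-flip test over 4 mice cannot go below 0.125.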
